A study of Mus musculus with 9 samples.

Results

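The 10 genes described here encode the cytokines IL-1α, IL-1β, and IL-18, the IL-1 receptor with its partner chain, the soluble IL-18 binding protein, and 4 parts of the NLRP3 inflammasome. They were chosen by name (Il1b, Il1a, Il18, Il1r1, Il1rap, Il18bp, Nlrp3, Pycard, Casp1, and Gsdmd), and all 10 were found among the 38621 genes of the deposited table. Their mRNA was measured in the brain of 9 male C57BL/6 mice, with 3 mice in each group. The sham mice received saline by intracerebral injection, although the sample labels call them untreated, the ICH mice received their own whole blood, and the feb mice received febuxostat, a xanthine oxidase inhibitor, by gavage once daily on consecutive days before the same injection of blood. Injected blood models the hematoma but not the rupture of a vessel, and no group received febuxostat without blood. The sampled brain region and the time after injection are not given for these libraries. All values are RPKM, reads per kilobase of exon scaled to the total of reads counted on genes, and between 23065757 and 29538009 reads per mouse lie behind them.

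IL-1α, IL-1β, and IL-18 are made as precursors. In the canonical pathway a first signal through NF-kB raises the transcription of Nlrp3 and Il1b, and a second signal assembles NLRP3 with the adaptor ASC, encoded by Pycard, so that caspase-1 is activated, cleaves pro-IL-1β and pro-IL-18, and opens gasdermin D for release of the cytokines and for pyroptosis. Because cleavage and release are steps of the protein, the mRNA level alone does not report them. In the brain, microglia and infiltrating myeloid cells are the best-known source of the Il1b and Nlrp3 transcripts.

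Before the groups are compared, the marker levels of the libraries are given, which differed both within groups and between groups. The summed RPKM of 8 tissue injury markers was 60.2, 27.3, and 36.2 across the sham mice, 43.0, 184, and 23.3 across the ICH mice, and 56.4, 31.7, and 54.3 across the feb mice. ICH replicate 2 therefore stood far above all other mice, while ICH replicate 3 was below every sham mouse. The summed RPKM of 10 microglia markers ran from 68.6 to 92.2 across the sham mice, was 105, 156, and 79.0 across the ICH mice, and ran from 62.7 to 97.5 across the feb mice. All 10 microglia markers passed the filter used for testing. Markers of neutrophils summed to at most 2.36 RPKM in any mouse, and Ly6g was at 0 in 8 of the 9 mice. Markers of monocytes and macrophages summed to between 4.88 and 14.2, and the highest value was that of ICH replicate 1. The red blood cell sum was 32.3, 40.6, and 40.5 across the sham mice and 124, 27.7, and 26.7 across the ICH mice. It was 17.1, 21.6, and 21.0 across the feb mice. ICH replicate 1 was thus the highest in this sum, while ICH replicates 2 and 3 were below every sham mouse. Markers of neurons summed to between 452 and 546, although Slc17a7, a vesicular glutamate transporter of excitatory neurons, was 18.5, 17.9, and 11.9 across the sham mice, 45.2, 66.2, and 32.6 across the ICH mice, and 19.0, 30.2, and 30.7 across the feb mice. Choroid plexus markers summed to between 365 and 1035 in the sham and ICH mice and to between 30.6 and 88.4 across the feb mice, and meningeal fibroblast markers to between 10.3 and 28.9 and between 6.93 and 12.5. The part of these cell types in the results below was not tested, and in whole tissue fewer cells of a type and less RNA per cell cannot be told apart.

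The levels of the 10 genes spanned a wide range, with the cytokine gene Il18 at the top and the cytokine gene Il1b at the bottom. Il18 was highest at a mean of 9.55 RPKM over the 9 mice, above 81.9% of the genes tested. It was followed by Il1rap (3.74), Il18bp (2.78), Pycard (1.21), Gsdmd (1.17), Il1r1 (1.07), Casp1 (0.572), Il1a (0.331), Nlrp3 (0.289), and Il1b (0.101). Il18 exceeded Il1rap in all 9 mice without overlap of their ranges, and the same held for Il18bp over Pycard. Il1rap exceeded Il18bp in 8 of 9 mice and Il1r1 exceeded Casp1 in all 9, but the ranges overlapped. Pycard, Gsdmd, and Il1r1 did not differ beyond their spread, since Pycard exceeded Gsdmd in 5 of 9 mice and Gsdmd exceeded Il1r1 in 5 of 9. Il1a exceeded Nlrp3 in 6 of 9 mice.

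**Figure D1:**
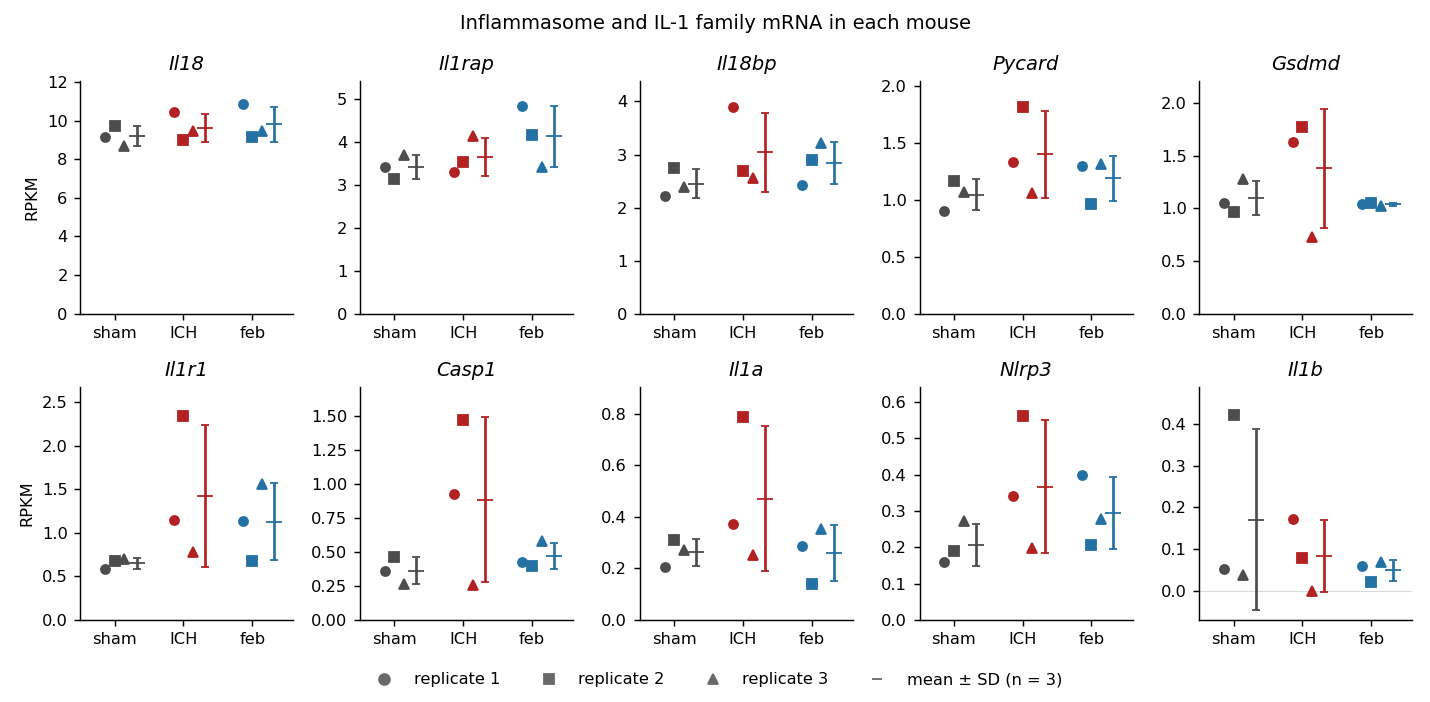
RPKM of each of the 10 genes in each mouse (linear axes, ordered by mean level), with points shaped by replicate and the mean ± SD of 3 mice beside them. Il18 stays between 8.70 and 10.8 in all 9 mice, whereas Il1r1, Casp1, Il1a, and Nlrp3 have their highest value in ICH replicate 2 and Il1b has its highest value in sham replicate 2.

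The 250 bases before the RefSeq gene start are shown for 5 of the genes. The abundant Il18 and the scarce Il1b mark the ends of the order of levels. Il1a, Pycard, and Casp1 are among the 6 genes that were highest in ICH replicate 2. Of the other genes highest in that mouse, Il1r1 and Nlrp3 are not shown, and Gsdmd had no RefSeq promoter by symbol. The sequences are of the GRCm38.p6 build, 5′ to 3′ on the gene's strand. Capitals mark the letters GAGGAA in either orientation (TTCCTC on the gene's strand when reversed), the core bound by the myeloid transcription factor PU.1, and TATAAA in the gene's orientation, the TATA box. The windows are chr2:129309973-129310222 for Il1a and chr2:129371140-129371389 for Il1b, both on the minus strand, chr7:127993868-127994117 for Pycard on the minus strand, chr9:5298267-5298516 for Casp1 on the plus strand, and chr9:50554450-50554699 for Il18 on the plus strand.
Il1a: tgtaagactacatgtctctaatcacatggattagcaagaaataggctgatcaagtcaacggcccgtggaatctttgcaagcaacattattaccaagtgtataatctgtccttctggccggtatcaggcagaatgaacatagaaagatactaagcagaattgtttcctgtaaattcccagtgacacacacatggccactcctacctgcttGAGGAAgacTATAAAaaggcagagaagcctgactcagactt
Il1b: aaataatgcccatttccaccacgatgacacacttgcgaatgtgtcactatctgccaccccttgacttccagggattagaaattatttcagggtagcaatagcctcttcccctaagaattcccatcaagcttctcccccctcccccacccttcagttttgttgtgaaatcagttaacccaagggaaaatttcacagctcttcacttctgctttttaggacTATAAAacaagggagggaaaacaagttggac
Pycard: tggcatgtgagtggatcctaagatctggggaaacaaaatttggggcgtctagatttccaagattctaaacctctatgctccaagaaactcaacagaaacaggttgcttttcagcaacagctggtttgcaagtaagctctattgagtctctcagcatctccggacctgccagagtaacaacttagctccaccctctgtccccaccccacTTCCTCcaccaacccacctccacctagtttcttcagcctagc
Casp1: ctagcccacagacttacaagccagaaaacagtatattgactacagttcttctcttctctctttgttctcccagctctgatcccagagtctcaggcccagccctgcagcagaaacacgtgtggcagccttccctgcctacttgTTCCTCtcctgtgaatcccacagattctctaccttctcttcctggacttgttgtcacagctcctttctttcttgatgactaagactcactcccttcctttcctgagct
Il18: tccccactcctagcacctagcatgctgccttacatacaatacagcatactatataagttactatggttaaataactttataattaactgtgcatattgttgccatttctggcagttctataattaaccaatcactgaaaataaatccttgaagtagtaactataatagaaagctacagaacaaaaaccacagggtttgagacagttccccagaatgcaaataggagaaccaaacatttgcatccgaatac
Of the 10 genes, 9 matched the RefSeq promoter table by symbol, with 11 promoters in all. GAGGAA or its reverse complement was found in 4 of the 11, those of Il1a, Pycard, and Casp1 and 1 of the promoters of Nlrp3 but none of Il1r1, and in 23.3% of all 32851 promoters. It began 41 bases before the start of Il1a and 42 before that of Pycard. TATAAA was found in 2 of the 11 (Il1a and Il1b, at 32 and 31 bases before the start) and in 7.59% of all promoters. The NF-kB motif, searched as GGG and CC with any 5 bases between them, was found on either strand in 4 of the 11, in Casp1, Il1r1, Il1rap, and Nlrp3, and in 45.8% of all promoters, and it overlapped no marked letters in the sequences shown. These matches describe the letters in these windows and do not show that a factor binds there.

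Differences between the groups were tested with limma on log2(RPKM + 0.1), a scale that understates the change of genes near 0.1 RPKM, over the 29025 genes with at least 0.1 RPKM in at least 3 mice. Genes were called at an unadjusted p-value under 0.05 with a fold change over 2, the study's criteria, and p-values were adjusted by the Benjamini-Hochberg method across every gene tested. Of the 10 genes, 9 were tested, and each of these had at least 0.1 RPKM in all 9 mice. Il1b passed 0.1 RPKM in only 2 mice and was not tested. Scaling the samples to equal medians lowered the median log2 fold change of all genes from 0.08 to -0.018 between ICH and sham and from 0.05 to -0.052 between feb and sham, so differences of this size depend on the scaling.

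None of the 9 genes was called in any of the 3 comparisons. Between ICH and sham 2.53% of all genes tested were called, between feb and ICH 2.43%, and between feb and sham 2.2%. No adjusted p was under 0.05 in limma, a level reached by 0.0241%, 0.00689%, and 0.00345% of all genes tested in the same order. The lowest adjusted p were 0.408 (Il1r1, ICH against sham), 0.586 (Il1a, feb against ICH), and 0.647 (Il1rap, feb against sham). At an unadjusted p under 0.05 limma found 0 of the 9 in each comparison, against 12.3%, 11.1%, and 8.54% of all genes tested. Voom on the reads recovered from RPKM called 0 in each comparison, against 3.2%, 2.77%, and 2.77%, and found 1 (Il1r1 between ICH and sham), 0, and 0 at an unadjusted p under 0.05, against 13.7%, 11.1%, and 8.92%. The groups did not overlap for 1 of the 9 genes between ICH and sham (Il1r1), against 19.4% of all genes tested, and for 0 of 9 between feb and ICH and between feb and sham, against 17.2% and 12.7%.

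Between ICH and sham all 9 log2 fold changes were above 0, with a median of 0.37 against 0.08 over all genes tested, of which 61.1% were above 0. With equal medians those of Il18 and Il1rap were below 0 (-0.047 and -0.018). Between feb and ICH 7 of the 9 were below 0 and the median was -0.20, against -0.013 over all genes, of which 47.8% were above 0. Between feb and sham 7 were above 0 with a median of 0.20, against 0.05 over all genes, of which 58.7% were above 0. Each group enters 2 of these comparisons, so they are not independent. The 9 genes were chosen by name, and these medians carry no test.

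**Figure D2:**
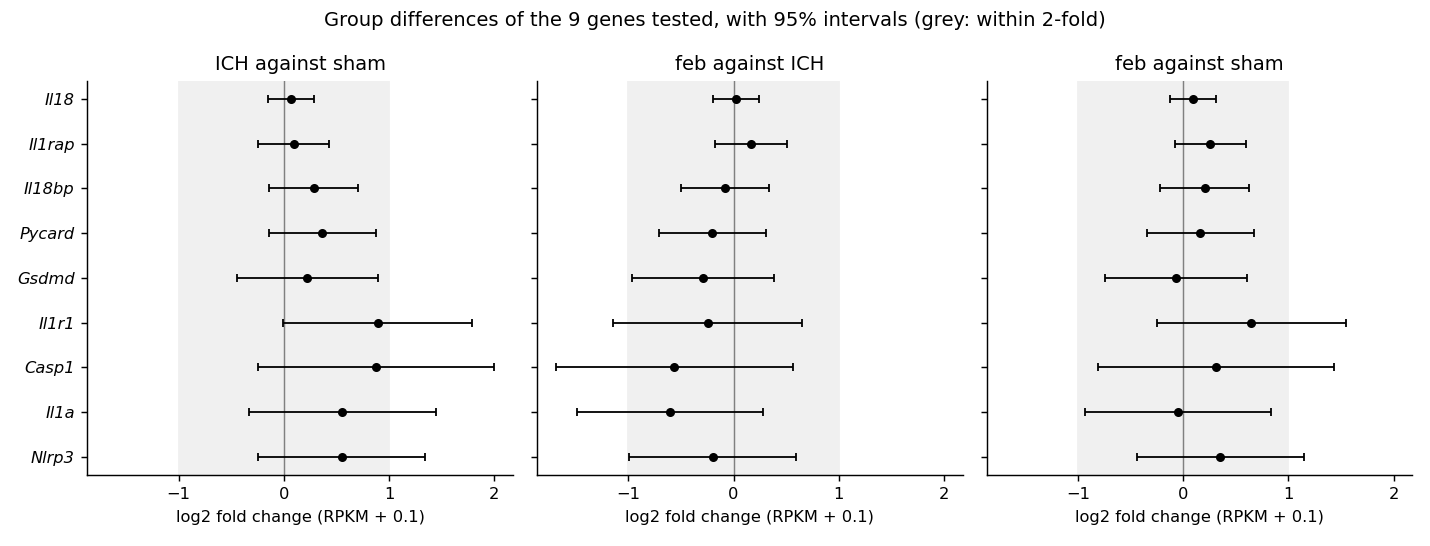
Log2 fold change of log2(RPKM + 0.1) with its 95% interval from limma for the 9 genes tested, in the 3 comparisons, with differences within 2-fold shaded. Every interval includes 0, and those of Il18 are the narrowest, from -0.15 to 0.29 between ICH and sham and from -0.19 to 0.25 between feb and ICH.

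Among the ligands, Il18 (chromosome 9, 50554827 to 50581840 in GRCm38) had 9.16, 9.72, and 8.70 RPKM across the sham mice, 10.4, 9.0, and 9.48 across the ICH mice, and 10.8, 9.14, and 9.46 across the feb mice, from 225 to 296 reads. The 3 groups overlapped throughout, and the highest mouse had 1.25 times the level of the lowest. On the scale of log2(RPKM + 0.1) the fold was 1.05 between ICH and sham (95% interval 0.899 to 1.22, adjusted p = 0.779 in limma) and 1.02 between feb and ICH (0.874 to 1.19, adjusted p = 0.942). Il18 mRNA in this tissue thus had the smallest coefficient of variation of the 10 genes, 7.24% over the 9 mice.

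Il1b (chromosome 2, 129364570 to 129371139) is the inducible cytokine, and its mRNA was close to the limit of detection. Its reads numbered 3, 21, and 2 across the sham mice, 8, 4, and 0 across the ICH mice, and 3, 1, and 3 across the feb mice. These correspond to 0.0533, 0.421, and 0.0373 RPKM, to 0.171, 0.0798, and 0, and to 0.0594, 0.0208, and 0.0682. The highest level was in sham replicate 2, and the other 8 mice had at most 8 reads. The counting interval of sham replicate 2 (0.261 to 0.644, exact Poisson, 95%) lay above the value of every other mouse and overlapped the interval of ICH replicate 1 (0.0740 to 0.338). For the 0 reads of ICH replicate 3, a limit of 3 reads corresponds to 0.0601 RPKM. Such intervals cover counting error only. The group means were 0.171 ± 0.217, 0.0837 ± 0.0857, and 0.0495 ± 0.0252 (SD, n = 3 each), and two-sided exact permutation tests gave p = 0.7 for ICH against sham, 0.7 for feb against ICH, and 0.6 for feb against sham, where 3 against 3 cannot go below 0.1. No difference in Il1b between groups was detected with these reads and this number of mice.

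Other cytokine genes were examined in sham replicate 2 after its Il1b value was seen. Cxcl2, a neutrophil-attracting chemokine, had 14 reads there and at most 1 in any other mouse, with 0 in 5 mice. Il1rn, the IL-1 receptor antagonist, had 12 reads there and at most 4 elsewhere. Cxcl1 had 7 reads there and at most 5 elsewhere, and Csf3 and Il6 had 4 reads each and at most 1 and 2 elsewhere. These genes are named for their value in this mouse, and others of the same list did not peak there, since Tnf and Ccl2 had 0 reads in it and up to 11 and 3 elsewhere. The neutrophil marker sum was highest in this mouse (2.36). Of its markers, S100a8 was 0.331 RPKM there and at most 0.0589 in any other mouse. Retnlg was 1.26 there and 1.35 in feb replicate 3. Ly6g, Camp, and Elane were at 0 there, but Ly6g was above 0 only in feb replicate 2 and Elane only in sham replicate 1. Camp was up to 0.199 elsewhere, in feb replicate 1. S100a9 was 0.660 in sham replicate 2 and 0.843 in sham replicate 1. Ngp and Mmp8 did not peak in sham replicate 2 either. Ngp was 0.0939 there and 0.334 in ICH replicate 1, and Mmp8 was 0.0158 there and 0.0279 in sham replicate 1. The microglia sum of 92.2 in sham replicate 2 was the highest of the sham mice. The part of these cells in the Il1b value was not tested.

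Il1a (chromosome 2, 129299610 to 129309972), the neighbor of Il1b on the same strand, was 0.206, 0.310, and 0.270 RPKM across the sham mice, 0.372, 0.790, and 0.251 across the ICH mice, and 0.287, 0.140, and 0.351 across the feb mice. Its 7 to 41 reads per mouse were most numerous in ICH replicate 2, and ICH replicate 3 lay within the range of the sham mice. The log2 fold change was 0.56 between ICH and sham (95% interval -0.33 to 1.44, adjusted p = 0.547 in limma) and -0.60 between feb and ICH (-1.49 to 0.28, adjusted p = 0.586). A long non-coding gene on the other strand, Gm14023, shares 11.2% of the exon bases of Il1a, and whether strand was used in counting is not given in the sources used here.

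Of the receptors, Il1r1 (chromosome 1, 40225080 to 40317257), the chain that binds IL-1, differed most between the groups. It had 0.580, 0.673, and 0.693 RPKM across the sham mice, 1.15, 2.34, and 0.774 across the ICH mice, and 1.14, 0.679, and 1.56 across the feb mice, from 109 to 392 reads. Every ICH mouse was above every sham mouse, the only such case among the 10 genes, while ICH replicate 3 exceeded the highest sham mouse by little. The log2 fold change between ICH and sham was 0.89 (standard error 0.39, 95% interval -0.0072 to 1.79, adjusted p = 0.408 in limma), a fold of 1.86, and the two-sided exact permutation test gave p = 0.1, the smallest that 3 against 3 allows. Between feb and ICH it was -0.24 (-1.14 to 0.65, adjusted p = 0.841), and without ICH replicate 2 it was 0.16. Between feb and sham it was 0.65 (-0.25 to 1.55, adjusted p = 0.659), with feb replicate 2 inside the sham range. Without ICH replicate 3, Il1r1 met both criteria between ICH and sham (log2 fold change 1.22, adjusted p = 0.348 in limma), and without ICH replicate 2 the log2 fold change was 0.48 (unadjusted p = 0.188).

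Il1rap (chromosome 16, 26581704 to 26730117), the accessory chain shared by the receptors of IL-1 and IL-33, was steadier. It had 3.42, 3.14, and 3.69 RPKM across the sham mice, 3.30, 3.53, and 4.15 across the ICH mice, and 4.83, 4.16, and 3.42 across the feb mice, from 895 to 1453 reads. The groups overlapped, and ICH replicate 2 was not the highest mouse. The log2 fold changes were 0.09, 0.17, and 0.26 for ICH against sham, feb against ICH, and feb against sham, with upper bounds of 0.43, 0.51, and 0.60. The log2 ratio of Il1r1 to Il1rap within a mouse, with 0.1 added to each, was -2.37, -2.07, and -2.26 across the sham mice, -1.44, -0.57, and -2.28 across the ICH mice, and -1.99, -2.45, and -1.08 across the feb mice. Its mean was 0.80 higher in ICH than in sham mice (two-sided exact permutation test, p = 0.3, adjusted p = 0.9 over 9 tests of ratios).

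Il18bp (chromosome 7, 102014885 to 102018690) encodes the secreted decoy that neutralizes IL-18. It was 2.22, 2.74, and 2.39 RPKM across the sham mice, 3.90, 2.69, and 2.55 across the ICH mice, and 2.42, 2.89, and 3.21 across the feb mice. ICH replicate 1 was the highest, and the 3 groups overlapped. The log2 fold change was 0.28 between ICH and sham (95% interval -0.14 to 0.71, adjusted p = 0.521 in limma) and -0.081 between feb and ICH (-0.50 to 0.34, adjusted p = 0.893). The log2 ratio of Il18 to Il18bp was 1.87 ± 0.114 for sham, 1.65 ± 0.235 for ICH, and 1.76 ± 0.315 for feb mice (SD, n = 3 each), and the exact permutation tests of its differences gave p = 0.3, 0.7, and 0.6. The third ratio examined, that of Il1b to the antagonist Il1rn, rested on a few reads and gave p = 1.0, 0.7, and 0.9 in the same exact tests.

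Of the inflammasome parts, the sensor Nlrp3 (chromosome 11, 59541568 to 59566956) had 0.159, 0.189, and 0.272 RPKM across the sham mice, 0.342, 0.562, and 0.198 across the ICH mice, and 0.40, 0.205, and 0.278 across the feb mice, with 19 to 60 reads. ICH replicates 1 and 2 exceeded all sham mice, and ICH replicate 3 did not. The log2 fold change was 0.55 between ICH and sham (95% interval -0.24 to 1.34, adjusted p = 0.512 in limma) and -0.20 between feb and ICH (-0.99 to 0.60, adjusted p = 0.856).

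Casp1 (chromosome 9, 5298517 to 5307265), the caspase that cleaves pro-IL-1β, pro-IL-18, and gasdermin D, had 0.362, 0.460, and 0.261 RPKM across the sham mice, 0.928, 1.47, and 0.255 across the ICH mice, and 0.429, 0.397, and 0.579 across the feb mice. ICH replicates 1 and 2 were the 2 highest of the 9 mice, with 34 and 58 reads, and ICH replicate 3 was the lowest, with 10. The log2 fold change was 0.87 between ICH and sham (95% interval -0.25 to 2.0, adjusted p = 0.472 in limma) and -0.56 between feb and ICH (-1.68 to 0.56, adjusted p = 0.689). Casp1 was the gene whose call depended most on a single library. Without ICH replicate 3 it met both criteria in both comparisons, with log2 fold changes of 1.49 (unadjusted p = 0.00146, adjusted p = 0.279) and -1.18 (unadjusted p = 0.00544, adjusted p = 0.325 in limma). Without ICH replicate 2 the log2 fold changes were 0.41 (unadjusted p = 0.392) and -0.10 (unadjusted p = 0.829 in limma). Without ICH replicate 3, 3.68% and 3.21% of all genes tested were called, and the injury marker sum of that mouse (23.3) was the lowest of the 9.

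The adaptor Pycard (chromosome 7, 127989708 to 127993867) was 0.900, 1.17, and 1.07 RPKM across the sham mice, 1.33, 1.81, and 1.06 across the ICH mice, and 1.29, 0.959, and 1.31 across the feb mice, from 92 to 181 reads. Its log2 fold change was 0.37 between ICH and sham (95% interval -0.14 to 0.87, adjusted p = 0.499 in limma). ICH replicate 3 was again within the sham range. Gm45205 on the other strand shares 12.8% of its exon bases. Gsdmd (chromosome 15, 75862339 to 75867404), the pore-forming protein, was 1.05, 0.969, and 1.28 RPKM across the sham mice, 1.63, 1.78, and 0.731 across the ICH mice, and 1.04, 1.05, and 1.03 across the feb mice. The ICH mice were thus both the highest and the lowest of the 9, and the feb mice were closely alike. The log2 fold change was 0.22 between ICH and sham (-0.45 to 0.90, adjusted p = 0.749) and -0.29 between feb and ICH (-0.96 to 0.38, adjusted p = 0.733).

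**Figure D3:**
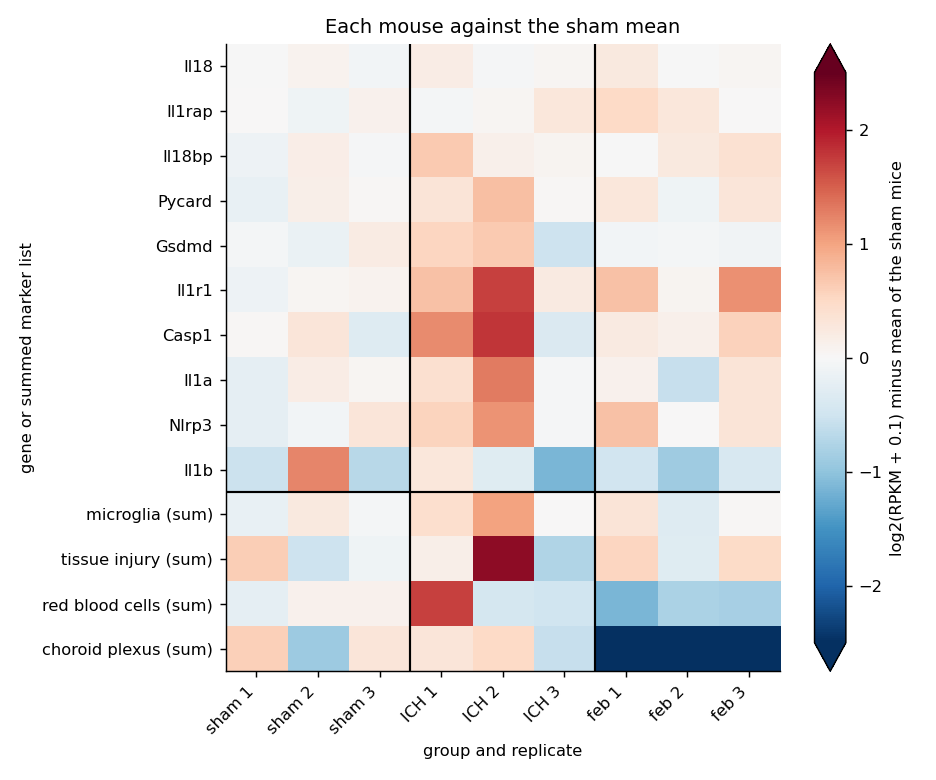
Log2(RPKM + 0.1) of the 10 genes and of 4 summed marker lists in each mouse, minus the mean of the 3 sham mice (color, log2 scale, cut off at 2.5 in either direction). ICH replicate 2 has the highest value of 6 of the 10 genes and of the microglia and injury sums. ICH replicate 3 has the lowest value of 3 of the 10 genes and exceeds all sham mice in 2. The choroid plexus sum is low in all feb mice.

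ICH replicate 2 held the highest value of the 9 mice in 6 of the 10 genes, those of Il1a, Il1r1, Nlrp3, Pycard, Casp1, and Gsdmd, against 16.2% of all genes tested. ICH replicate 1 exceeded all sham mice in 8 of the 10 genes, ICH replicate 2 in 6, and ICH replicate 3 in 2, against 43.2%, 35.0%, and 28.1% of all genes tested. The 3 feb mice did so in 5, 2, and 6 of the 10 genes, against 29.8%, 25.9%, and 41.6%. Across the 9 mice, the 6 genes that peaked in ICH replicate 2 had Pearson correlations with each other between 0.58 (Il1r1 and Gsdmd) and 0.94 (Il1a and Pycard), as a description over mice that share 1 extreme library. Il18 and Il1rap had correlations between -0.37 and 0.23 with these 6 genes.

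The levels of the 10 genes were also set beside the microglia markers from mouse to mouse. The exact permutation tests below shuffled all 9 mice without regard to group. Their p-values therefore do not separate differences between groups from differences within them. Over 10 relations examined after the data were seen, the log2 level of Pycard and the log2 microglia sum had a Pearson's r of 0.94 (exact permutation test, p = 0.00059, adjusted p = 0.00295, n = 9) and a Spearman's rho of 0.92 (exact permutation p = 0.00131, adjusted p = 0.00656). For Il1a r was 0.94 (exact permutation p = 0.000535, adjusted p = 0.00295) and rho was 0.92 (exact permutation p = 0.00131). Without the 2 mice farthest from the median, ICH replicates 1 and 2, r was 0.79 for Pycard and 0.77 for Il1a, and within groups, after the group means were removed, r was 0.96 and 0.91. For Nlrp3, Casp1, and Il1r1 r was 0.85, 0.83, and 0.80 (exact permutation p = 0.00464, 0.00722, and 0.0101, adjusted p = 0.0155, 0.0181, and 0.0202), with rho of 0.72, 0.77, and 0.72 (exact permutation p = 0.0369, 0.0214, and 0.0369, adjusted p = 0.0614 each). Without the same 2 mice r was 0.56, 0.26, and 0.43, lower for each gene. With 7 mice left and a narrower range of the microglia sum, how far these relations rested on the 2 mice cannot be told. Within groups r was 0.88, 0.78, and 0.85. Gsdmd had an r of 0.66 (exact permutation p = 0.0549, adjusted p = 0.0915), a rho of 0.28 (exact permutation p = 0.463), and an r of -0.17 without the 2 mice. The relations of Il18, Il18bp, Il1rap, and Il1b had an r of 0.23, 0.23, -0.17, and 0.37, with exact permutation p of at least 0.307 (adjusted p of at least 0.439). Their rho was 0.42, 0.33, -0.25, and 0.73, and only that of Il1b had an exact permutation p under 0.05 (0.0311, adjusted p = 0.0614). Without the 2 mice their r was 0.77, -0.029, 0.12, and 0.53, so Il18 was then as close to the microglia sum as Il1a and Pycard were.

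**Figure D4:**
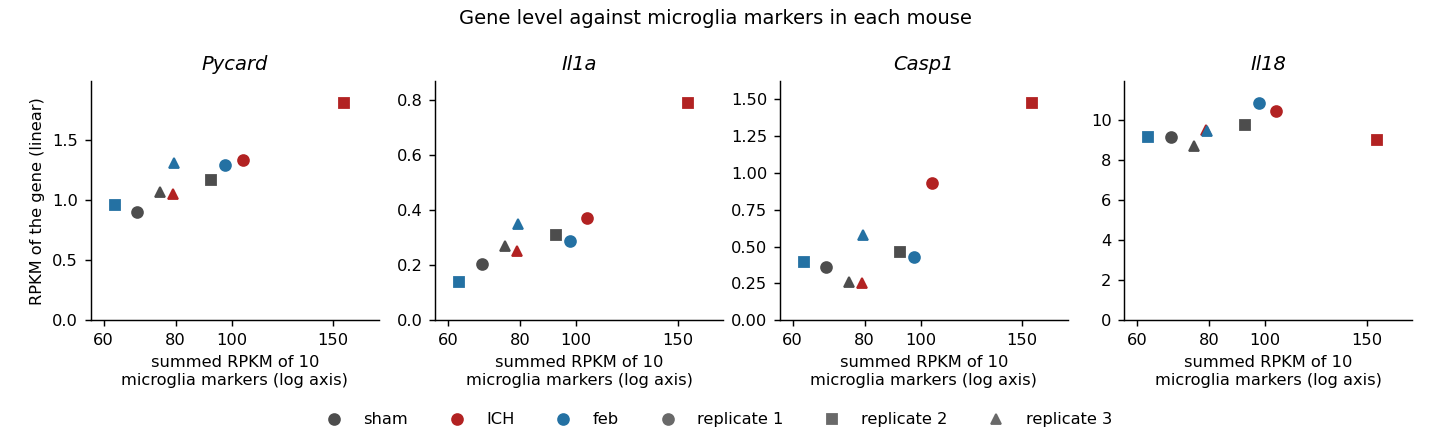
RPKM of 4 of the genes (linear axes) against the summed RPKM of 10 microglia markers (log axis) in each of the 9 mice, colored by group and shaped by replicate. Pycard and Il1a are higher where the microglia sum is higher, Casp1 is high in ICH replicates 1 and 2 alone, and Il18 stays between 8.70 and 10.8.

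The genes most like each member over the 9 mice were sought among 17660 genes with a mean of at least 1 RPKM, for the 6 members with at least 0.3 RPKM in every mouse. For Pycard these were Tmsb4x (r = 0.98), C1qc (0.97), and Fermt3 (0.97), of which C1qc encodes a complement subunit made by microglia. For Il1r1 they were Golm1 (0.99), Havcr2 (0.98), and Ccna2 (0.98). Il18 was most like C87436, Mier3, and Phtf1os (r = 0.93, 0.92, and 0.90), Il18bp most like Zfp354b, Intu, and Mir541 (0.98, 0.96, and 0.96), Gsdmd most like Gm9843, Slc35f6, and Mir3076 (0.94, 0.93, and 0.92), and Il1rap most like Plscr3, Kif6, and Gm15536 (0.87, 0.85, and 0.85). With 9 mice and this many genes, high correlations arise among unrelated genes.

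Other genes of the pathway were taken from a list of 62 sensors, caspases, ligands, receptors, signaling proteins, and genes induced through NF-kB, of which 57 matched the table, 1 of them by a RefSeq synonym. The filter left 42 of these, and limma called 0 of 42 in each comparison. At an unadjusted p under 0.05, limma found 2 higher between ICH and sham, where 12.3% of all genes tested reached that level in either direction, 4 lower between feb and ICH (11.1%), and 2 higher and 1 lower between feb and sham (8.54%). Voom called 0, 1, and 0 of the 42 in the 3 comparisons, the single call being Nlrp1b, and found 4, 6, and 3 at an unadjusted p under 0.05. Of all genes tested voom called 3.2%, 2.77%, and 2.77% and found 13.7%, 11.1%, and 8.92% at that level. The median log2 fold change of the 42 genes was 0.21, -0.15, and 0.0042. Without overlap between the groups were 10 genes between ICH and sham, all higher in ICH, 1 higher and 9 lower between feb and ICH, and 4 higher and 3 lower between feb and sham, against 19.4%, 17.2%, and 12.7% of all genes tested in either direction. By direction, these shares of all 29025 genes were 3826 higher and 1804 lower, 2043 higher and 2941 lower, and 2259 higher and 1421 lower.

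**Figure D5:**
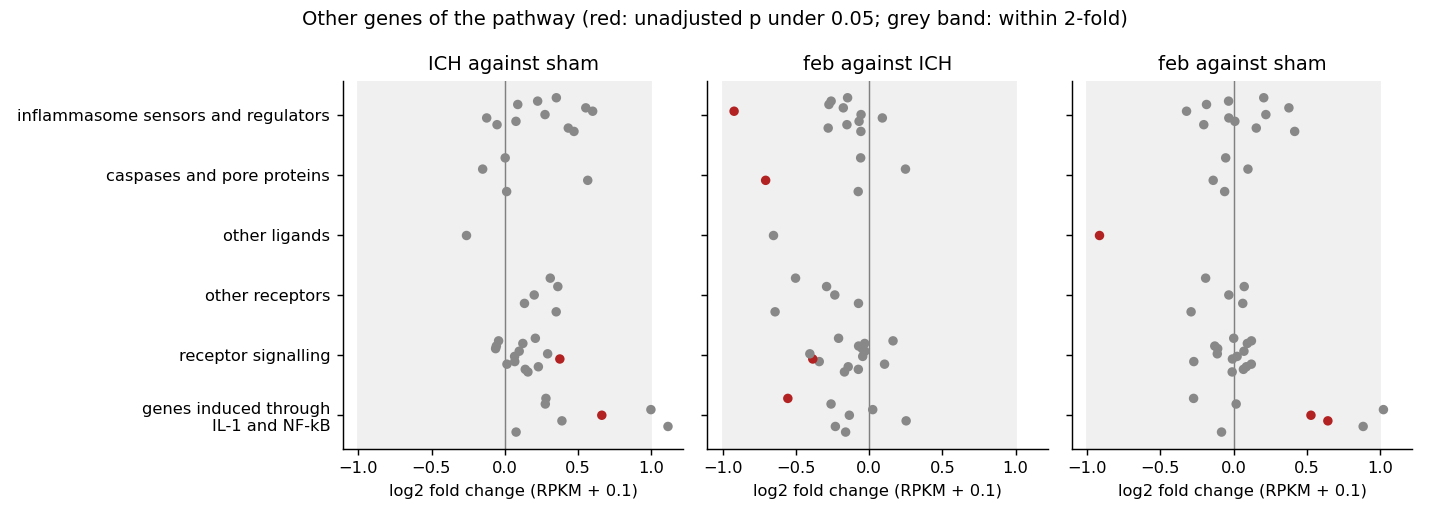
Log2 fold changes on the scale of log2(RPKM + 0.1) of the 42 other pathway genes tested, 1 point per gene in rows by role, in the 3 comparisons, with red for an unadjusted p under 0.05 and grey shading for differences within 2-fold. All red points lie within 2-fold, with 2 right of 0 between ICH and sham, 4 left of 0 between feb and ICH, and 2 right and 1 left of 0 between feb and sham.

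Of the other ligands, receptors, and regulators, the partners needed for IL-18 signaling were nearly undetected. Il18r1 had 0 to 3 reads and Il18rap 0 to 11 reads in any mouse, so neither was tested, while Il18bp had at least 194. The antagonist Il1rn had 0 to 12 reads, and Il6 and Tnf had at most 4 and 11. The decoy receptor Il1r2 had 1 to 19 reads and log2 fold changes of 0.35 and -0.64 between ICH and sham and between feb and ICH (adjusted p = 0.784 and 0.667). Casp4, which encodes the caspase of the non-canonical inflammasome, had 1 to 16 reads. By contrast Nek7, a kinase that binds NLRP3, was abundant at 6.40 ± 1.0, 5.87 ± 0.982, and 6.30 ± 1.43 RPKM for sham, ICH, and feb mice (SD, n = 3 each).

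Il33, the alarmin of the IL-1 family that oligodendrocytes and astrocytes store in the nucleus, was 8.33, 6.02, and 8.64 RPKM across the sham mice, 4.68, 7.84, and 6.75 across the ICH mice, and 3.32, 6.46, and 2.87 across the feb mice. Feb replicates 1 and 3 were the lowest of the 9, and feb replicate 2 lay within the sham range. Its log2 fold change between feb and sham was -0.92 (95% interval -1.63 to -0.21, unadjusted p = 0.0172, adjusted p = 0.565 in limma). The oligodendrocyte marker sum was 448, 555, and 320 across the feb mice, 464 to 669 across the sham mice, and 397, 361, and 637 across the ICH mice. The part of oligodendrocytes in the Il33 values was not tested. Myd88, the adaptor of the IL-1 receptor, was 1.51, 1.14, and 1.37 RPKM across the sham mice, 1.33, 2.51, and 1.35 across the ICH mice, and 1.33, 1.11, and 1.25 across the feb mice, again highest in ICH replicate 2 (adjusted p of at least 0.561 in the 3 comparisons). Sigirr, an inhibitory receptor of the family, ranged from 0.112 to 0.389 RPKM with adjusted p of at least 0.573.

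The remaining pathway genes with an unadjusted p under 0.05 in limma are named here because of that value. Nfkbiz, an IκB family member induced by IL-1, was 0.722, 0.869, and 0.773 RPKM across the sham mice, 1.35, 1.46, and 1.12 across the ICH mice, and 1.14, 0.924, and 1.55 across the feb mice. All ICH and all feb mice were above all sham mice, with log2 fold changes of 0.66 (adjusted p = 0.347) and 0.53 (adjusted p = 0.580). Between feb and ICH Vcam1, an endothelial adhesion molecule, had a log2 fold change of -0.56 (unadjusted p = 0.00883, adjusted p = 0.314), with 2.04, 2.40, and 1.55 RPKM across the ICH mice and 1.29, 1.32, and 1.32 across the feb mice. In the same comparison Nlrp1b, an inflammasome sensor, Casp8, and Irak4, a kinase below MyD88, had -0.92, -0.71, and -0.39 (adjusted p = 0.381, 0.415, and 0.441), and each was highest in ICH replicate 2. Irak4 also had 0.38 between ICH and sham (adjusted p = 0.404). Nfkbia, the NF-kB inhibitor, had 0.64 between feb and sham (adjusted p = 0.565). None passed adjustment over all genes tested.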

How the data were processed

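The authors trimmed the reads with Trimmomatic 0.36, collapsed them by molecular barcode, aligned them to GRCm38, counted them on exons with featureCounts (Subread 1.5.1), and deposited RPKM values with exon lengths in a single table. The annotation release and strand setting are not given in the sources used here. RPKM multiplied by exon length gave whole reads for 100% of values (tolerance 0.02 of a read). Columns were assigned to mice by title.

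Testing used limma 3.58.1 in R 4.3.3 (lmFit, eBayes with trend, all 9 mice, no block) on log2(RPKM + 0.1), because the deposited unit is RPKM and not a count. The fit was tested on simulated data. Single values were compared by two-sided exact permutation. Named genes were, by rule, the 10 members, 11 listed pathway genes, called pathway genes (0 in limma), and the 3 most correlated genes for 6 members. Pathway genes at an unadjusted p under 0.05, marker genes, and Cxcl2, Cxcl1, Csf3, and Ccl2 were named after their values were seen. The members and lists were chosen with earlier results of these data known. Lists of microglia, neutrophils, monocytes and macrophages, lymphocytes, red blood cells, endothelium, choroid plexus, meningeal fibroblasts, astrocytes, oligodendrocytes, neurons, and tissue injury were summed per mouse. The lymphocyte sum was at most 3.88 RPKM, the endothelial sum 30.7 to 47.3, and the astrocyte sum 280 to 813, highest in ICH replicate 2. Nothing states whether the 3 samples of a group were handled separately, so p-values measure the spread between these samples. Alternatives were pseudocounts of 1 and 0.01, no filter, at least 1 RPKM, equal medians, 2-group fits, the replicate number as a block, voom on recovered reads, and each mouse left out, with a p-value criterion alone added after the data were seen. Promoter sequences came from RefSeq. Tables were made with Python 3.11.15.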

Additional observations from a re-analysis of the deposited data

How the results depend on the processing

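In every setting that kept all 9 mice, 0 of the tested members met the criteria in each comparison. The replicate numbers are shared in the labels only, and same-numbered mice did not deviate together (correlations from -0.13 to 0.019), so the block is given here once: with the replicate block 0 members were called and 717, 684, and 615 genes in all, against 735, 706, and 639. With single mice left out, 0 to 2 members were called between ICH and sham, 0 to 1 between feb and ICH, and 0 between feb and sham, and 0 to 2, 0 to 2, and 0 to 1 of the other pathway genes. Among all genes, the count ranged from 158 (pseudocount of 1) to 1299 (without sham replicate 2) between ICH and sham, from 128 to 932 (without ICH replicate 3) between feb and ICH, and from 91 to 1150 between feb and sham (same settings as the first). The called genes were 423 higher and 312 lower between ICH and sham, and 327 and 422 with equal medians, and between feb and sham 461 and 178, and 333 and 229 with equal medians. Of the other pathway genes, 1 was called between feb and ICH with a pseudocount of 0.01 and with voom (Nlrp1b in both), and 1 between feb and sham with equal medians (Il33) and with a fit of 2 groups (Ptgs2). A p-value criterion without the fold change gave 2, 4, and 3. The cause of these shifts was not tested.

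Of 369 alternative values of the 27 log2 fold changes, 13 changed sign, 3 newly met the criteria, and 353 did neither. Equal medians gave -0.047 for Il18 and -0.018 for Il1rap between ICH and sham and -0.024 for Il18 between feb and sham. With single mice left out, Il18 ranged from -0.047 to 0.083, Il1r1 from -0.58 to 0.16, Il18bp from -0.19 to 0.10, and Nlrp3 from -0.49 to 0.091 between feb and ICH, and Il1a ranged from -0.24 to 0.22 and Gsdmd from -0.15 to 0.039 between feb and sham. The difference in the ratio of Il18 to Il18bp ranged from -0.073 to 0.22 (feb against ICH) and from -0.29 to 0.0020 (feb against sham), and that of Il1r1 to Il1rap from -0.84 to 0.020 (feb against ICH). That of Il1b to Il1rn ranged from -0.34 to 0.42, -0.56 to 0.11, and -0.50 to 0.19 in the 3 comparisons, and with a pseudocount of 0.01 it was 0.51 between ICH and sham and 0.41 between feb and sham. Without the filter, Il1b had log2 fold changes of -0.39, -0.20, and -0.59 (unadjusted p = 0.494, 0.727, and 0.312 in limma). Requiring 1 RPKM in 3 mice left out the less abundant members. Depth limits Il1b, Il1a, Casp1, and Nlrp3 most, with at most 21, 41, 58, and 60 reads per mouse.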
